A study of Homo sapiens with 18 samples.

Results

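TRIM24 knockdown was examined in LNCaP cells kept without hormone. LNCaP is an established human prostate cancer cell line of luminal type that responds to androgen. The comparison takes 6 of the 18 arrays in the series: 3 of cells transfected with a control siRNA and 3 of cells transfected with siRNA against TRIM24, chosen by the cell line, siRNA and treatment in the sample labels. Both groups were starved of hormone for 48 h in medium with charcoal/dextran-treated serum, were transfected for 48 h, and received vehicle, which was ethanol, for 24 h. The other 12 arrays, 3 control and 3 knockdown arrays in each of 2 further settings, served only to test where the response differed: LNCaP given 10 nM DHT (dihydrotestosterone, the active androgen) in place of vehicle, and, with vehicle, LNCaP-abl, a subline of LNCaP adapted to growth in the absence of androgen. How many siRNAs were used, and their sequences, is not given in the sources used here. A single line was studied in each setting. Nothing in the labels says that the 3 arrays of a group are separate cultures, so the p-values reflect variation between arrays that may be purely technical. In bulk RNA, fewer cells of a kind and less RNA per cell cannot be told apart.

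TRIM24, also called TIF1-alpha, is a member of the tripartite motif family. It joins a RING domain with ubiquitin ligase activity to a plant homeodomain and bromodomain that read histone H3, and it binds nuclear receptors, among them the androgen and retinoic acid receptors, as a cofactor. In mouse tissues it is known as a repressor of interferon-response genes and of endogenous retroviral elements, and in prostate cancer cells as a coactivator of androgen-dependent and cell-cycle genes. The comparison addresses which transcripts change after siRNA against TRIM24 when no androgen is supplied. Effects of the loss of TRIM24 and other effects of the siRNA cannot be told apart in this design.

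Promoter sequences are shown first for 6 genes from the groups that changed, because each group has a short regulatory motif that textbook work ties to it: the interferon-stimulated response element, the kappa B site of NF-kappaB, and the CCAAT box and CHR element of mitotic genes. The stretches end at the base before the annotated start site, read 5′ to 3′ on the gene's strand, and come from RefSeq promoters of build GRCh38.p14. Capitals mark matches, on either strand, to GAAANNGAAA in IFIT3 (chr10:89327837-89327996, plus strand) and HERC5 (chr4:88456959-88457118, plus strand), to GGNNNTTCC in IFNB1 (chr9:21077943-21078062, minus strand) and CXCL11 (chr4:76036071-76036190, minus strand), and to CCAAT or TTTGAA in CCNB2 (chr15:59105016-59105145, plus strand) and CDC20 (chr1:43358851-43358980, plus strand).
IFIT3: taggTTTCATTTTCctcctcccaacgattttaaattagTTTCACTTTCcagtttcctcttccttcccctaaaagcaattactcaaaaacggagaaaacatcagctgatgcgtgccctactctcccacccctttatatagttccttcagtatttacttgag
HERC5: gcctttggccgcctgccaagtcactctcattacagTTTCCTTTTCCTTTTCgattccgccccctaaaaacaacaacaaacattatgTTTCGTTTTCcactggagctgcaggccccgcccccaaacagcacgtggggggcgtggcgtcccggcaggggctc
IFNB1: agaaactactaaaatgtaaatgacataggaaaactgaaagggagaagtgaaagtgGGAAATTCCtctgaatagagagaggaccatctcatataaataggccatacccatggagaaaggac
CXCL11: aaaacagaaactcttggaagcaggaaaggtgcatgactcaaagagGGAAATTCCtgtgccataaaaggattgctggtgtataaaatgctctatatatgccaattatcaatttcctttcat
CCNB2: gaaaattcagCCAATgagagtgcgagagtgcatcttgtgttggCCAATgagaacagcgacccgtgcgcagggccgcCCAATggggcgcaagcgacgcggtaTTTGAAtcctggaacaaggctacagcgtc
CDC20: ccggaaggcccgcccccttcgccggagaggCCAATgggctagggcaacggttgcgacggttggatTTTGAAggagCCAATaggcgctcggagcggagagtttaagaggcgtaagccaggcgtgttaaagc
The motifs shown were held by a larger share of the called members' promoters than of all promoters, but members that were not called held them too; none of these shares was tested. RefSeq promoters were matched for 16 of the 19 interferon effectors that rose and 6 of the 8 not called, for 10 of 12 and 4 of 7 chemokines and NF-kappaB targets, and, of the genes that fell, for 9 of 12 mitotic kinases and cyclins, 12 of 16 kinetochore and 12 of 15 anaphase and cytokinesis genes. GAAANNGAAA, searched over the 250 bases before the start site, was in 1061 of all 35116 promoters (3.02%); it was in 15 of 23 promoters of the interferon effectors that rose and in 6 of 8 promoters of those that were not called. GGNNNTTCC was in 17.1% of all promoters and in 9 of 14 promoters of the chemokines and NF-kappaB targets that rose, and in 3 of 6 of those not called. CCAAT was in 32.0% of all promoters, in 10 of 11 promoters of the mitotic kinases and cyclins that fell, in 11 of 14 of the kinetochore genes that fell and in 10 of 14 of the anaphase and cytokinesis genes that fell; among members not called it was in 6 of 14, 3 of 4 and 4 of 9. TTTGAA was in 13.3% of all promoters and in 3 of 11, 3 of 14 and 8 of 14 promoters of the same 3 groups, and in 4 of 14, 3 of 4 and 5 of 9 of their members not called. The E2F motif TTTCCCGC was in 1.39% of all promoters and in none of the 11, 14 and 14 promoters of the genes that fell, and in 0 of 14, 1 of 4 and 0 of 9 of those not called. Matches can overlap each other, several promoters can belong to 1 gene, and a match is a description of the letters only.

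Values are log2 expression levels from RMA, so a difference of 1 is a 2-fold change, and each gene is read from its brightest probe set. TRIM24 itself read 9.69, 9.71 and 9.71 in the 3 control arrays and 7.73, 7.70 and 7.69 in the 3 knockdown arrays. Every knockdown array lay below every control array, and the log2 change was -1.99 ± 0.05 (SE, n = 3 arrays per group; limma with Benjamini-Hochberg adjustment, adjusted p = 3.0e-13), which left 25.1% of the control level. A second bright TRIM24 probe set was called lower as well. The 3 related TIF1 proteins did not pass the test: the corepressor TRIM28 changed by -0.06 ± 0.05, the SMAD-linked TRIM33 by 0.07 ± 0.04 and TRIM66 by 0.07 ± 0.12. For TRIM33, 2 of its 3 other bright probe sets were called higher, so its level is unsettled.

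Markers of the labelled cell type were present. Of 11 luminal prostate markers on the array 10 had a mean at or above 5.88, the median of the table, and their mean level was 10.46 to 10.49 in control arrays. Basal keratins were low: 5.77 for KRT5, 4.18 for KRT14 and 4.90 for KRT15 in the controls. However, 4 of 11 basal markers had a control mean at or above 5.88: ITGA6 at 9.51, DST at 8.40, ITGB4 at 7.31 and BCL2 at 6.85. Neuroendocrine, fibroblast, and leukocyte and endothelial markers averaged between 5.02 and 5.75 on every one of the 6 arrays, and PTPRC, which defines leukocytes, read 3.39. In the controls 5 of 13 neuroendocrine markers had a mean at or above 5.88, TUBB3 the highest at 10.81. So did 6 of 15 fibroblast markers, up to 7.49 for COL1A1, and 5 of 14 leukocyte and endothelial markers, up to 6.68 for HBB.

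The response was broad and mostly small. Of 13607 genes tested, 2792 rose (20.5%) and 2445 fell (18%) at an adjusted p under 0.05, and the 3 knockdown arrays did not overlap the 3 control arrays for 6931 genes (50.9%). Called changes had a median size of 0.26 on the log2 scale. A 2-fold change was reached by 33 genes that rose and 73 that fell. Shares of a gene list are to be read against these backgrounds. The log2 ratio of 3' to 5' signal of the GAPDH control probe sets was 0.52 ± 0.03 (SD, n = 3) in control and 0.59 ± 0.02 in knockdown arrays, that of ACTB 1.87 ± 0.06 and 2.05 ± 0.07, each without overlap (exact permutation test, two-sided p = 0.1, the smallest p that 3 against 3 allows). With the GAPDH ratio as a covariate 3437 genes were called. Arrays of a group correlated at 0.997 to 0.998 across probe sets, and control array 3 stood farthest from its group.

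**Figure D1:**
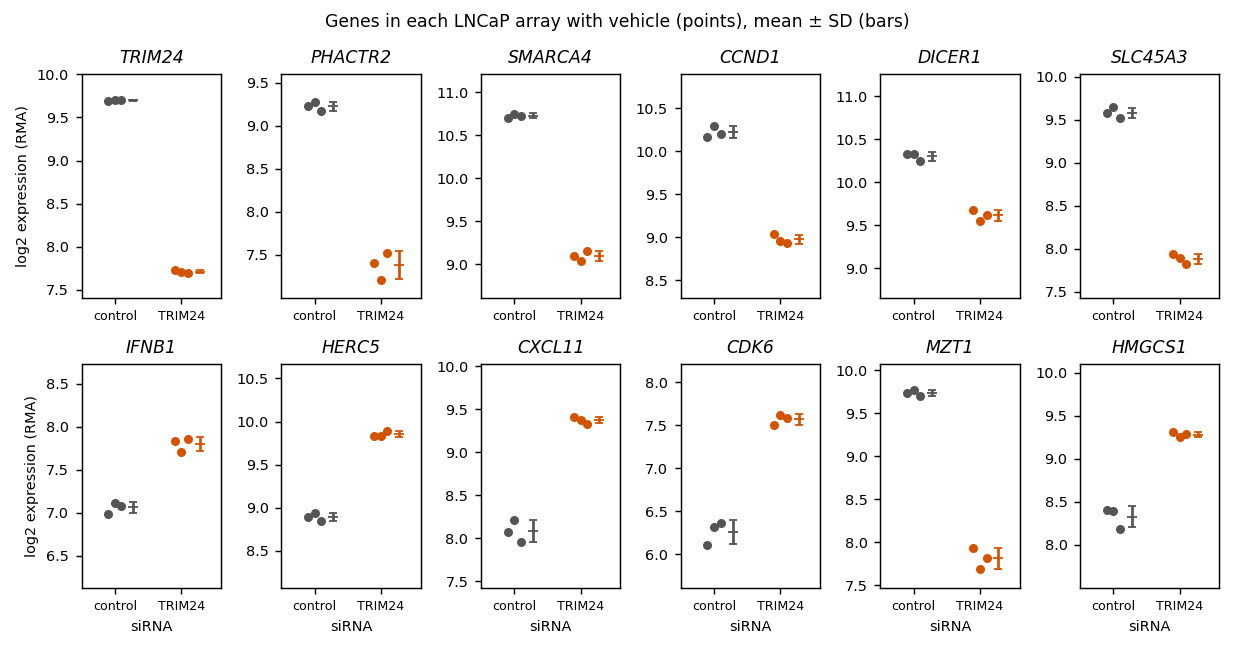
Log2 expression (y axis, RMA) of 12 genes in each of the 3 control and 3 TRIM24 siRNA arrays of LNCaP with vehicle; points are arrays, bars the mean and SD, and all panels span the same range. TRIM24 stands near 9.7 in the controls and 7.7 in the knockdown. The groups do not overlap for any of the 12 genes, but for those named among the largest changes the naming rule required this.

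Interferon effectors had the highest share of members called higher among the lists with at least 8 tested members. Interferons bind cell surface receptors that act through JAK kinases and factors such as IRF9, and the induced effectors block viral replication. Of 29 effectors listed 27 passed the filter; 19 rose, none fell, and 8 did not pass, with a median change of 0.29 against 0.00 over all genes tested. HERC5, the ligase that attaches the ubiquitin-like protein ISG15, read 8.88, 8.93 and 8.84 in controls and 9.84, 9.83 and 9.90 in knockdown arrays. That is a change of 0.97 ± 0.04 (adjusted p = 4.1e-11), with no overlap between groups. IFIT3, which binds and stabilises the RNA sensor IFIT1, read 11.21, 11.08 and 11.11 and then 12.09, 12.10 and 12.07, a change of 0.95 ± 0.04 (adjusted p = 6.9e-11). OASL, an enzymatically inactive relative of the oligoadenylate synthetases that enhances RIG-I signalling, rose by 1.01 ± 0.04 and IFIT2 by 1.05 ± 0.05. These were already bright genes, IFIT2 reaching 12.45, 12.47 and 12.35 after knockdown. DDX60, a helicase linked to viral RNA sensing, rose by 1.10 ± 0.10 and IFIT1 by 0.62 ± 0.05. Second bright probe sets of OASL, IFIT2 and IFIT3 were called higher too, those of IFIT2 and IFIT3 at 0.99 and 1.05. The group did not move as 1 block. MX1, the dynamin-like GTPase often used as a marker of interferon action, was dim at 5.85, 5.64 and 5.76 in controls. It changed by 0.07 ± 0.09 (adjusted p = 0.56). With the GAPDH covariate MX1 passed, at 0.32, while 14 effectors were called higher in place of 19.

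The upstream steps went in both directions. Among 26 tested sensors, ligands, receptors and factors 8 rose and 6 fell, with a median of 0.03. The ligand gene IFNB1 read 6.99, 7.12 and 7.08 in controls and 7.84, 7.71 and 7.86 in knockdown arrays, with no overlap. Its change was 0.74 ± 0.09 (adjusted p = 5.0e-06), and that of the type III interferon IFNL1 was 0.95 ± 0.12 (adjusted p = 1.0e-05). IFIH1, which encodes the double-stranded RNA sensor MDA5, rose by 0.80 ± 0.07 and IRF9, a DNA-binding factor of the interferon response, by 0.50 ± 0.04. A pair of receptor genes and the adaptor gene fell. IFNAR1, a chain of the type I interferon receptor, read 9.36, 9.35 and 9.33 in controls and 8.56, 8.60 and 8.59 after knockdown, a change of -0.76 ± 0.04 (adjusted p = 1.7e-09). The other chain, IFNAR2, changed by -0.44 ± 0.06 on its brightest probe set, but neither of its 2 other bright ones was called (0.01 and -0.07), and the call was lost on its most variable one (adjusted p = 0.22). For the type II receptor chain IFNGR2 the change was -0.59 ± 0.06. MAVS, the mitochondrial adaptor through which RIG-I and MDA5 signal, fell to 62.3% of control with all 3 of its other bright probe sets lower as well (-0.68 ± 0.04, adjusted p = 7.0e-10). For IFNAR1, 2 of 3 other bright probe sets fell and 1 changed by 0.12. Antigen presentation moved less: 3 of 12 genes tested rose and none fell, PSMB9 of the immunoproteasome by 0.36 ± 0.08. ERAP1, the peptide-trimming aminopeptidase, rose by 0.49 ± 0.06 on its brightest probe set, while its 3 others ranged from -0.17 to 0.01.

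**Figure D2:**
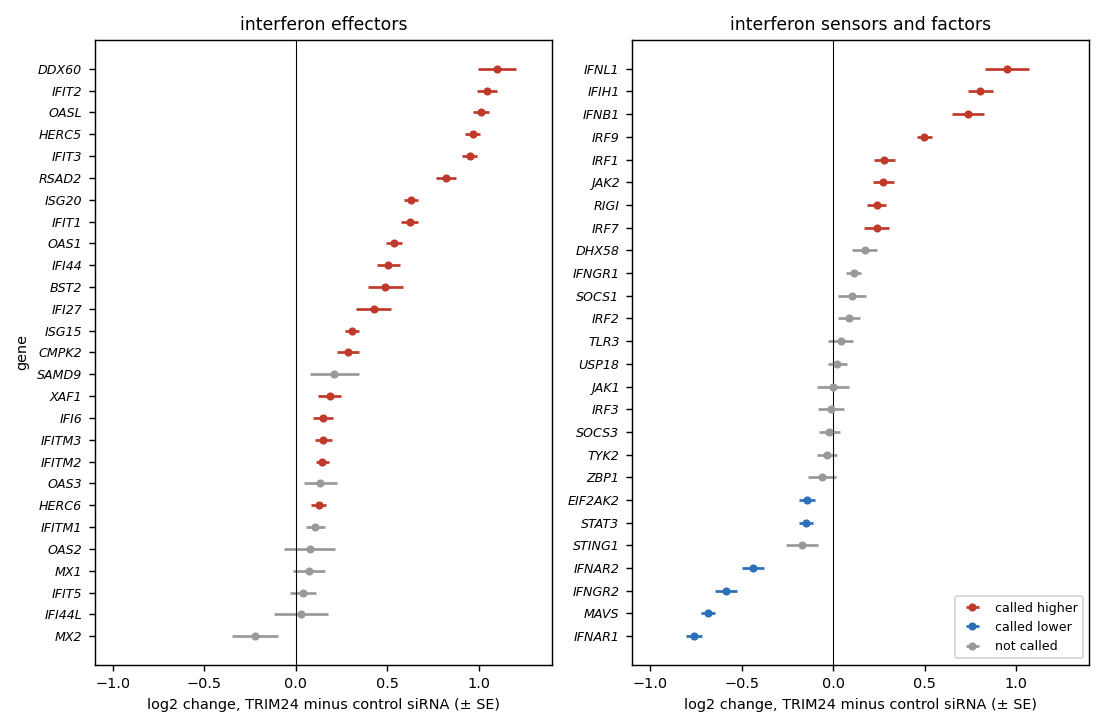
Log2 change (x axis, TRIM24 minus control siRNA, ± SE, 3 arrays per group) of the tested interferon effectors (left) and of sensors, ligands, receptors and factors (right), coloured by call. No effector was called lower and 19 were called higher, whereas on the right IFNB1, IFNL1 and IFIH1 stand at one end and IFNAR1, MAVS and IFNGR2 at the other.

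Chemokines and other NF-kappaB targets also rose. Of 30 listed 21 were tested, 12 rose and 2 fell, with a median of 0.31. CXCL8, the neutrophil attractant interleukin-8, read 6.82, 6.86 and 6.59 in controls and 8.28, 8.23 and 8.30 in knockdown arrays. The change was 1.51 ± 0.11 (adjusted p = 1.4e-08). CXCL11, which is induced by interferon and attracts T cells, read 8.07, 8.22 and 7.96 and then 9.41, 9.38 and 9.33, a change of 1.29 ± 0.07 (adjusted p = 7.1e-10). CXCL10, a ligand of the same receptor, rose by 0.86 ± 0.07. CCL20 rose by 1.45 ± 0.10 from 4.99, 4.89 and 5.36, below the filter value, where RMA compresses changes. TNFAIP3, the deubiquitinase A20 that restrains NF-kappaB, rose by 0.72 ± 0.07. The largest fall of the list was TNFSF4, the costimulatory ligand OX40L, which went from 7.43, 7.60 and 7.59 to 6.39, 6.17 and 6.26 (-1.27 ± 0.06, adjusted p = 3.1e-10). Immediate early genes, which respond to growth signals before new protein is made, gave 9 rises and 3 falls among 17. EGR1 read 6.85, 6.97 and 7.02 in controls and 7.99, 7.90 and 7.90 after knockdown (0.99 ± 0.06, adjusted p = 5.0e-09), and the transcription factor KLF4 rose by 0.60 ± 0.05.

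Genes of mitosis fell. Of 19 mitotic kinases and cyclins 12 fell and 1 rose (median -0.31), of 23 kinetochore and centromere genes 16 fell and 3 rose (-0.37), and of 22 anaphase and cytokinesis genes 15 fell and 1 rose (-0.26). Mitotic kinesins gave 5 falls among 11. CENPF, a kinetochore protein made in G2, read 6.83, 6.75 and 6.91 in controls and 5.74, 5.78 and 5.54 in knockdown arrays. Its change was -1.15 ± 0.08 (adjusted p = 1.0e-08), and that of SGO2, which guards centromeric cohesin, was -1.07 ± 0.08. CCNB2, a cyclin B that activates CDK1, read 8.05, 8.0 and 8.01 and then 7.24, 7.37 and 7.32; it fell by 0.71 ± 0.04 (SE; adjusted p = 2.8e-09), although its second bright probe set changed by -0.03. CCNB1 fell by 0.66 ± 0.05 and the survivin gene BIRC5 by 0.73 ± 0.05. CDC20, which activates the anaphase-promoting complex, read 7.61, 7.60 and 7.76 in controls and 7.01, 6.86 and 7.02 after knockdown (-0.69 ± 0.06, adjusted p = 2.5e-07). The securin gene PTTG1 fell to 62.3% of control. CDK1 itself fell by 0.23 ± 0.05 and TOP2A by 0.28 ± 0.07, and neither passed with the GAPDH covariate. With it 8 mitotic kinases and cyclins were called lower in place of 12, 12 kinetochore genes in place of 16, and 8 anaphase genes in place of 15. Against the group, WEE1, the kinase that inhibits CDK1, rose by 0.45 ± 0.03 (0.17 and not called on its second bright probe set) and the centromere licensing factor MIS18A by 0.47 ± 0.08.

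Other cell-cycle lists held smaller shares of falls; differences between lists were not tested. Homologous recombination and Fanconi genes gave 5 falls and 2 rises among 13 (median -0.17). MCM helicase and licensing genes gave 4 rises and 4 falls among 17 (median 0.05), and replication fork and nucleotide genes 3 rises and 5 falls among 20. Within these, the helicase subunit GINS1 rose by 0.54 ± 0.08 and the flap endonuclease FEN1 by 0.48 ± 0.05, while thymidylate synthase, TYMS, read 9.67, 9.72 and 9.70 in controls and 9.02, 9.03 and 8.98 after knockdown (-0.69 ± 0.04). Among 22 G1 regulators 6 rose and 3 fell. CCND1, the cyclin D1 gene, read 10.16, 10.30 and 10.20 in controls and 9.03, 8.95 and 8.93 in knockdown arrays, 42.2% of control (-1.25 ± 0.05, adjusted p = 8.5e-12). Its partner kinases went the other way: CDK6 read 6.10, 6.31 and 6.36 and then 7.5, 7.62 and 7.58 (1.31 ± 0.08, adjusted p = 4.6e-09), and CDK4 rose by 0.36 ± 0.04. CDK2, another kinase of the list, rose by 0.58 ± 0.06. FOXM1, the factor that drives late cell-cycle genes, fell by 0.44 ± 0.09. The centrosome list gave 6 rises and 2 falls among 16, yet held 1 of the deepest falls of the whole comparison: MZT1, a small subunit of gamma-tubulin complexes, read 9.74, 9.77 and 9.70 in controls and 7.93, 7.69 and 7.81 after knockdown, 26.4% of control (-1.92 ± 0.06, adjusted p = 3.1e-12). NEDD1, which anchors the same complexes at centrosomes, rose by 0.55 ± 0.06.

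**Figure D3:**
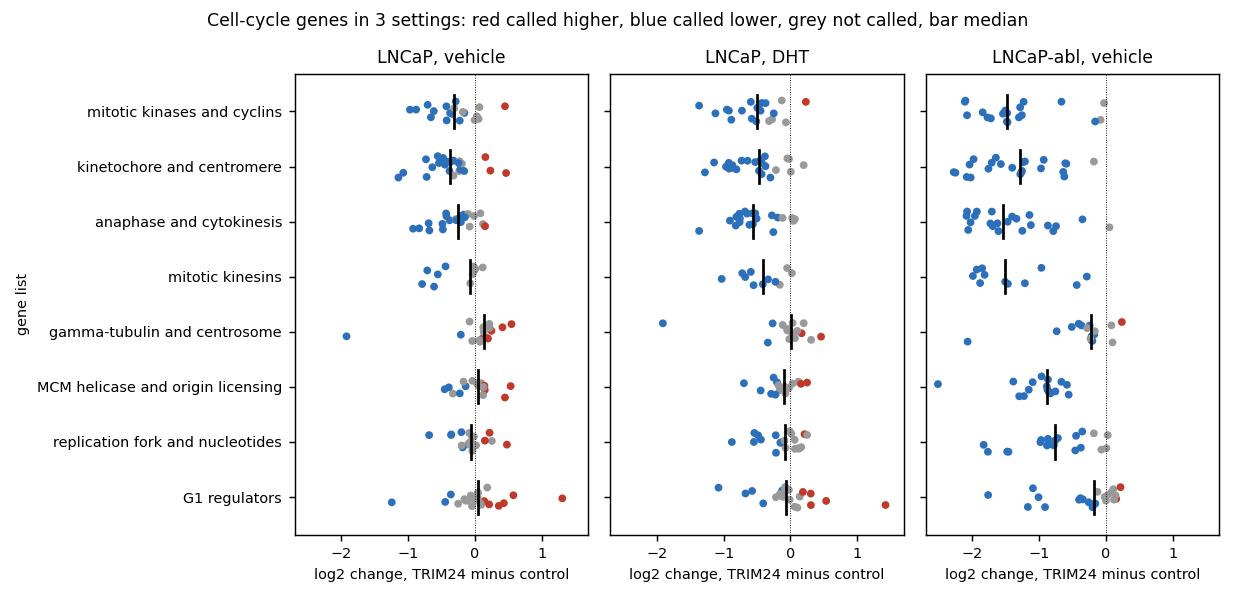
Log2 change (x axis, TRIM24 minus control siRNA) of each tested gene in 8 cell-cycle lists, with a panel each for LNCaP under vehicle, LNCaP under DHT and LNCaP-abl under vehicle (same scale); colours give the call and bars the list median. In LNCaP with vehicle the first 3 lists have medians of -0.31, -0.37 and -0.26, in LNCaP with DHT of -0.50, -0.47 and -0.57, and in LNCaP-abl of -1.48, -1.28 and -1.54.

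Androgen-induced genes, measured here without added androgen, fell more often than they rose. Of 31 tested 14 fell and 4 rose, with a median of -0.14. SLC45A3, the prostein gene, a prostate-restricted membrane transporter, read 9.57, 9.64 and 9.52 in controls and 7.93, 7.90 and 7.82 in knockdown arrays. It fell to 30.9% of control (-1.69 ± 0.06, adjusted p = 2.5e-12). ELL2, a transcription elongation factor, changed by -0.94 ± 0.08, and FKBP5, the steroid-receptor chaperone, by -0.47 ± 0.04. KLK3, which encodes prostate-specific antigen, read 8.55, 8.38 and 8.57 and then 8.06, 8.01 and 8.04 (-0.47 ± 0.13, adjusted p = 0.011), and did not pass with the GAPDH covariate (adjusted p = 0.089). Against the group, the prostaglandin receptor PTGER4 rose by 0.99 ± 0.13. Androgen-repressed genes did not move the opposite way: 7 of 15 fell and 4 rose, with a median of -0.14. OPRK1, the kappa opioid receptor, read 11.99, 11.97 and 11.89 in controls and 10.97, 10.99 and 10.86 after knockdown (-1.01 ± 0.07, adjusted p = 1.3e-08), and the androgen-glucuronidating enzyme UGT2B17 changed by -0.53 ± 0.07. CAMK2N1, an inhibitor of CaMKII, rose by 0.50 ± 0.05.

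Luminal markers shifted with them. Of 11 tested 6 fell and 1 rose (median -0.23), and the mean level of the list was 10.19 to 10.22 in knockdown arrays, below all controls. Without SLC45A3 it was 10.54 to 10.58 in controls and 10.42 to 10.44 in knockdown arrays. KLK2, KLK3, SLC45A3 and TMPRSS2 are on the androgen-induced list as well. KRT18 fell by 0.32 ± 0.04 and KRT8 by 0.23 ± 0.04. The exception was ACP3, prostatic acid phosphatase, which rose from 13.28, 13.23 and 13.21 to 13.77, 13.71 and 13.71 (0.49 ± 0.03, adjusted p = 1.2e-08). Of the basal markers 4 were tested, 1 of which rose, and 7 lay below the filter. Among 21 androgen receptor cofactors 5 rose and 4 fell, NCOA2 by 0.46 ± 0.04 and the epithelial factor GRHL2 by 0.47 ± 0.04. Retinoic acid targets, another nuclear receptor program linked to TRIM24, gave 3 rises and 1 fall among 14: the retinol dehydrogenase RDH10 read 9.57, 9.56 and 9.46 in controls and 10.63, 10.54 and 10.48 after knockdown (1.02 ± 0.06, adjusted p = 7.9e-10), PLAAT4 rose by 0.82 ± 0.06, and the retinaldehyde reductase DHRS3 fell by 0.62 ± 0.05. Targets of p53 fell more often than they rose, 13 against 3 of 24 (median -0.19), with the death receptor FAS at -0.38 ± 0.04 and the stress-response gene SESN1 at -0.32 ± 0.03, while PMAIP1, the proapoptotic NOXA gene, rose by 0.41 ± 0.05.

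**Figure D4:**
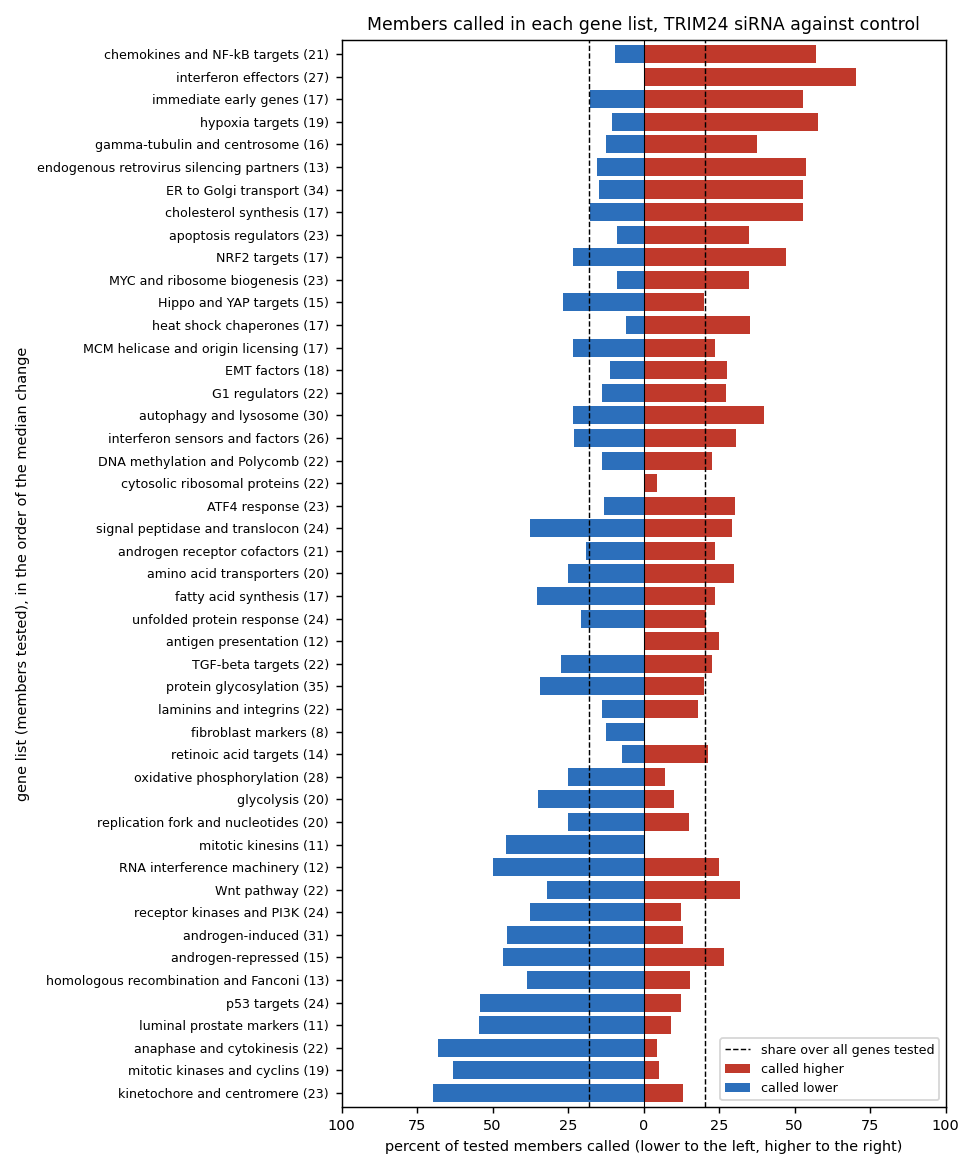
Percent of the tested members of each gene list that were called lower (blue, to the left) or higher (red, to the right), for lists with at least 8 tested members, whose number stands in brackets; lists are in the order of their median change and dashed lines mark the 18% and 20.5% over all genes tested. Interferon effectors have 19 of 27 higher and none lower, and the kinetochore list 16 of 23 lower.

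The secretory pathway held several of the largest changes, in both directions. Of 34 genes of transport from endoplasmic reticulum to Golgi 18 rose and 5 fell (median 0.11). SAR1B, the GTPase that starts COPII coat assembly, read 11.17, 11.17 and 11.07 in controls and 11.84, 11.86 and 11.79 after knockdown (0.69 ± 0.06, adjusted p = 1.0e-07), and all 4 of its other bright probe sets rose. CREB3L2, a transcription factor of secretory genes, rose by 0.75 ± 0.03 on its brightest probe set, while the other bright one changed by -0.22. GOLT1B, a Golgi transport protein, rose from 9.05, 9.13 and 8.94 to 10.70, 10.70 and 10.64 (1.64 ± 0.05), but by 0.19 on its second bright probe set. Signal peptidase and translocon genes gave 7 rises and 9 falls among 24. SPCS3, a subunit of signal peptidase, had the deepest fall of all genes named by size: it read 10.85, 10.80 and 10.94 in controls and 8.80, 8.84 and 8.82 in knockdown arrays (-2.05 ± 0.04, adjusted p = 3.0e-14). Its 2 other bright probe sets changed by -0.44 and -0.08, so the size rests on 1 probe set. SEC63, a translocon partner, fell by 0.56 ± 0.04 with its 3 other bright probe sets lower too.

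Folding and glycosylation genes were mixed. Unfolded protein response genes gave 5 rises and 5 falls among 24. PDIA4, a disulfide isomerase of the endoplasmic reticulum, read 11.29, 11.26 and 11.22 in controls and 10.22, 10.12 and 10.23 after knockdown (-1.07 ± 0.04, adjusted p = 1.0e-11), whereas EIF2AK3, the stress kinase PERK, rose by 0.76 ± 0.05 and the secreted chaperone MANF by 0.48 ± 0.03. Of 35 glycosylation genes 7 rose and 12 fell. DPY19L1, a C-mannosyltransferase, had the largest rise named by size: it read 6.99, 7.0 and 6.78 in controls and 8.75, 8.73 and 8.71 in knockdown arrays (1.81 ± 0.09, adjusted p = 1.7e-10), with 0.48 on its second bright probe set. STT3B, a catalytic subunit of oligosaccharyltransferase, fell by 0.36 ± 0.05.

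Lipid genes split within each pathway. Cholesterol synthesis gave 9 rises and 3 falls among 17, and fatty acid and glycerolipid synthesis 4 rises and 6 falls among 17. HMGCS1, which makes the substrate of HMG-CoA reductase, read 8.40, 8.39 and 8.19 in controls and 9.31, 9.26 and 9.29 after knockdown (0.96 ± 0.06, adjusted p = 3.5e-09), though its second bright probe set changed by 0.10. SQLE, squalene epoxidase of the same pathway, fell from 10.75, 10.74 and 10.66 to 9.81, 9.76 and 9.80 (-0.93 ± 0.04, adjusted p = 2.4e-11), with 2 other bright probe sets at -1.03 and -0.64. GPAM, the acyltransferase that starts triglyceride synthesis, read 9.5, 9.55 and 9.48 and then 8.35, 8.37 and 8.34 (-1.16 ± 0.05, adjusted p = 3.1e-11). The long-chain acyl-CoA synthetases went opposite ways: ACSL1 fell by 1.09 ± 0.06, and ACSL4, which prefers polyunsaturated fatty acids, rose by 1.35 ± 0.10 from a dim 5.46, 5.43 and 5.09. The desaturase SCD fell by 0.91 ± 0.03 on its brightest probe set, with 3 others between -0.24 and -0.03. Lysosome genes were among the firmest: SCARB2, the LIMP-2 receptor that carries glucocerebrosidase, read 13.30, 13.32 and 13.35 in controls and 11.60, 11.72 and 11.68 after knockdown (-1.66 ± 0.03, adjusted p = 1.7e-14), with 2 of 3 other bright probe sets lower and 1 at 0.27. LAMP1, a major lysosomal membrane protein, rose by 0.61 ± 0.03 with 3 others at 0.85 to 1.14, and the cholesterol exporter NPC1 fell by 0.77 ± 0.03. In the whole autophagy and lysosome list, which does not hold SCARB2, 12 of 30 rose and 7 fell. Of the amino acid transporters 6 of 20 rose and 5 fell, and the ends of the list were far apart. The cystine importer SLC7A11 read 10.74, 10.70 and 10.47 in controls and 9.40, 9.36 and 9.36 after knockdown (-1.27 ± 0.07, adjusted p = 1.5e-09). The cationic amino acid transporter SLC7A2 read 7.76, 7.79 and 7.81 and then 9.36, 9.28 and 9.31 (1.53 ± 0.04, adjusted p = 2.4e-13), and GCLC, which limits glutathione synthesis, rose by 0.60 ± 0.03.

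Genes of the RNA interference machinery changed in 9 of 12 cases, 6 lower and 3 higher. DICER1, the enzyme that cuts microRNA precursors, read 10.32, 10.33 and 10.24 in controls and 9.67, 9.55 and 9.61 in knockdown arrays (-0.69 ± 0.04, adjusted p = 1.6e-09), and its 2 other bright probe sets changed by -0.74 and -0.67. AGO1, an Argonaute protein that carries microRNAs, fell by 0.53 ± 0.03, while its relative AGO4 rose from 9.37, 9.48 and 9.51 to 10.37, 10.29 and 10.37 (0.89 ± 0.04, adjusted p = 7.0e-11). TNRC6C, a GW182 scaffold for silencing, fell by 1.03 ± 0.08 on its brightest probe set and changed by -0.07, not called, on the other bright one. In chromatin, SMARCA4, which encodes the SWI/SNF ATPase BRG1, read 10.70, 10.75 and 10.73 in controls and 9.10, 9.04 and 9.15 after knockdown, 32.3% of control (-1.63 ± 0.04, adjusted p = 2.0e-13). Of its 6 other bright probe sets 5 fell and 1 changed by 0.12. Partners in silencing of endogenous retroviruses gave 7 rises and 2 falls among 13, with changes from -0.31 to 0.29.

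Adhesion and signalling genes completed the large changes. LAMC1, the laminin gamma chain, read 9.59, 9.59 and 9.62 in controls and 11.24, 11.24 and 11.19 in knockdown arrays (1.62 ± 0.03, adjusted p = 9.1e-15), but its second bright probe set was called the other way, at -0.20. TIMP2, a metalloproteinase inhibitor, fell from 11.11, 11.06 and 10.98 to 9.54, 9.40 and 9.47 (-1.58 ± 0.05). Among Hippo pathway genes 3 rose and 4 fell of 15: the phosphatase PTPN14 and the angiomotin AMOTL1, both of which restrain YAP, changed by -1.01 ± 0.07 and -0.89 ± 0.07, and the YAP target CCN1 by -0.49 ± 0.05. FZD3, a Wnt receptor, rose by 0.99 ± 0.05 with 3 other bright probe sets at 0.91 to 1.27, and ESRP1, an epithelial splicing factor, by 1.02 ± 0.05 with 0.13 on its second. PHACTR2, a phosphatase and actin regulator, read 9.23, 9.28 and 9.17 in controls and 7.41, 7.20 and 7.52 after knockdown (-1.85 ± 0.08, adjusted p = 3.1e-11), and 4 other bright probe sets changed by -2.15 to -1.49. The palmitoyltransferase ZDHHC5 changed by -1.53 ± 0.04 and by -1.57 on its second probe set, the tight junction gene CLDN12 by 1.24 ± 0.05, the phosphoinositide phosphatase MTMR6 by 1.31 ± 0.05, and S100A10, the annexin A2 partner, by -1.48 ± 0.06. Of the 30 largest changes 17 had another bright probe set; in 11 of these every other one was called in the same direction, in 5 some were, and in LAMC1 none was. Among the other called genes named, no other bright probe set was called the same way for CCNB2, CREB3L2, ERAP1, ESRP1, HMGCS1, IFNAR2, PIK3CB, TNRC6C, TOP2A and WEE1, and only some were for ACP3, AGO1, CAMK2N1, FAS, IFNAR1, KLK3, NCOA2 and SCD.

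Adding DHT altered part of the response. The difference between the knockdown change with vehicle and that with DHT passed the test for 1507 genes, 775 with a more positive change with vehicle (5.70%) and 732 with a more negative one (5.38%). These differences contain the vehicle arrays already described, and the values are given side by side. Their balance depended on scaling: 679 were more positive and 910 more negative with quantile normalization, and 725 and 475 with median centring. Of the interferon effectors 13 of 27 had a more positive change with vehicle and none a more negative one, with medians of 0.29 with vehicle and 0.11 with DHT. HERC5 rose by 0.97 ± 0.04 with vehicle and changed by 0.29 ± 0.04 with DHT, a difference of 0.68 ± 0.06, adjusted p = 5.9e-06. For IFIT3 the changes were 0.95 ± 0.04 and 0.26 ± 0.04 (difference 0.69 ± 0.06, adjusted p = 5.9e-06), and for CXCL11 1.29 ± 0.07 and 0.42 ± 0.07 (difference 0.87 ± 0.10, adjusted p = 5.8e-05). The receptor IFNAR1 changed by -0.27 ± 0.04 with DHT against -0.76 ± 0.04 with vehicle (difference -0.49 ± 0.06, adjusted p = 1.7e-04). Of the NF-kappaB targets 8 of 21 had a more positive change with vehicle and none a more negative one. CXCL8 gave 0.61 ± 0.11 with DHT (difference 0.90 ± 0.15, adjusted p = 0.0014). For CXCL11 and CXCL8 it was mainly the control level that differed. CXCL11 read 8.08 in control and 9.37 in knockdown arrays with vehicle, and 8.91 and 9.33 with DHT. CXCL8 read 6.75 and 8.27 with vehicle, and 7.54 and 8.15 with DHT. HERC5 and IFIT3 ended lower with DHT after knockdown, at 9.40 and 11.63 against 9.85 and 12.09 with vehicle. Among mitotic genes 8 of 19 kinases and cyclins, 2 of 23 kinetochore and 6 of 22 anaphase genes had a more positive change with vehicle. None of them had a more negative one. The medians of these 3 lists were -0.50, -0.47 and -0.57 with DHT, against -0.31, -0.37 and -0.26 with vehicle.

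Genes more negative with vehicle included androgen-regulated ones, 8 of 31 induced and 8 of 15 repressed genes, and 16 of 35 glycosylation genes. CP, the ferroxidase ceruloplasmin, read 7.82, 7.57 and 7.68 in vehicle controls and 6.36, 6.08 and 5.93 after knockdown, a change of -1.56 ± 0.14. With DHT it read 5.32 in control and 5.38 in knockdown arrays, below the filter value of 5.88 in both, so a fall could not be measured there; the change was 0.07 ± 0.14 (difference -1.63 ± 0.19, adjusted p = 8.1e-05). The transcription factor MAF changed by -0.84 ± 0.10 with vehicle and 0.21 ± 0.10 with DHT (difference -1.04 ± 0.15, adjusted p = 3.0e-04), the serine protease TMPRSS11E by -1.06 ± 0.06 and 0.16 ± 0.06 (difference -1.23 ± 0.09, adjusted p = 1.8e-06), and UGT2B17 by -0.53 ± 0.07 and 0.44 ± 0.07 (difference -0.97 ± 0.10, adjusted p = 2.8e-05). Of 15 Hippo genes 2 had a more negative change with vehicle and 1 a more positive one: the negative ones were AMOTL1, at 0.01 ± 0.07 with DHT (difference -0.90 ± 0.10, adjusted p = 5.0e-05) and CCN1, at 0.29 ± 0.05 (difference -0.78 ± 0.07, adjusted p = 5.9e-06). NPC1 fell by 0.77 ± 0.03 with vehicle and changed by -0.19 ± 0.03 with DHT (difference -0.58 ± 0.05, adjusted p = 4.4e-06). In the positive direction, the small membrane protein gene SMIM31 changed by 1.17 ± 0.08 and 0.11 ± 0.08 (difference 1.07 ± 0.11, adjusted p = 3.0e-05), and FRY, a regulator of NDR kinases, by 0.83 ± 0.06 and -0.19 ± 0.06 (difference 1.02 ± 0.09, adjusted p = 5.9e-06).

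**Figure D5:**
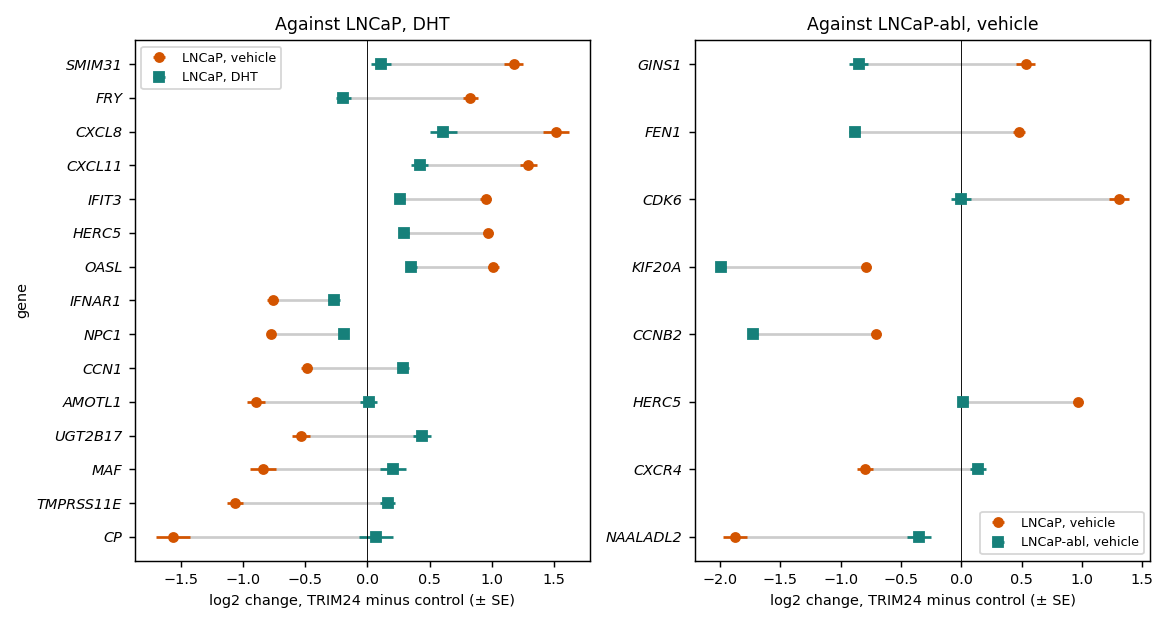
Log2 change (x axis, TRIM24 minus control siRNA, ± SE) of genes whose knockdown response differed, in LNCaP with vehicle (circles) and in LNCaP with DHT (squares, left) or LNCaP-abl with vehicle (squares, right); grey lines join the values of a gene. CP stands at -1.56 with vehicle and 0.07 with DHT, where it was below the filter value, as CDK6, CXCR4 and NAALADL2 were in LNCaP-abl, and GINS1 stands at 0.54 in LNCaP and -0.85 in LNCaP-abl.

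Most cell-cycle genes responded differently in LNCaP-abl. The knockdown change was more positive in LNCaP for 2712 genes (19.9%) and more negative for 1168 (8.58%). The balance depended on scaling: these classes held 1827 and 1644 genes with quantile normalization, and 3404 and 757 with median centring. All 17 MCM and licensing genes, 18 of 19 mitotic kinases and cyclins, 21 of 23 kinetochore genes and 21 of 22 anaphase genes were in the first class and none in the second, so their change was more negative in LNCaP-abl. The MCM and licensing genes, with a median of 0.05 in LNCaP, all fell there (median -0.88). Other lists went the opposite way: 18 of 35 glycosylation genes had a more negative change in LNCaP and 2 a more positive one, and so did 17 and none of 24 unfolded protein response genes. CCNB2 changed by -0.71 ± 0.04 in LNCaP and -1.72 ± 0.04 in LNCaP-abl (difference 1.02 ± 0.06, adjusted p = 2.3e-08), and the kinesin KIF20A by -0.79 ± 0.04 and -1.99 ± 0.04 (difference 1.20 ± 0.06, adjusted p = 4.9e-09). KIF20A averaged 5.89 in LNCaP controls, at the filter value, where changes are compressed, and 7.85 in LNCaP-abl controls. FEN1 and GINS1, which rose in LNCaP, changed by -0.88 ± 0.05 and -0.85 ± 0.08 in LNCaP-abl (differences 1.36 ± 0.07, adjusted p = 4.9e-09 and 1.39 ± 0.11, adjusted p = 4.6e-07). CDK6 rose in LNCaP and changed by 0.00 ± 0.08 in LNCaP-abl, where it read 5.59 in control and 5.59 in knockdown arrays, below the filter value (difference 1.31 ± 0.12, adjusted p = 1.6e-06). Of the interferon effectors 18 of 27 rose in LNCaP-abl and 1 fell, with a median of 0.41 against 0.29 in LNCaP; 4 members were more positive in LNCaP and 7 more negative. HERC5 was among the first, at 0.02 ± 0.04 in LNCaP-abl (difference 0.95 ± 0.06, adjusted p = 2.3e-08). Outside the cell cycle, NAALADL2, a peptidase-like gene, read 6.80, 7.34 and 6.90 in LNCaP controls and 5.24, 5.10 and 5.08 after knockdown. In LNCaP-abl it was below the filter value (4.66 in control and 4.31 in knockdown arrays), where a fall of that size could not be seen, and changed by -0.35 ± 0.10 (difference -1.52 ± 0.14, adjusted p = 1.8e-06). The chemokine receptor CXCR4 changed by -0.80 ± 0.07 in LNCaP and 0.14 ± 0.07 in LNCaP-abl (difference -0.94 ± 0.10, adjusted p = 5.9e-06), where it read 3.65 in control and 3.79 in knockdown arrays, too low for a fall to be seen.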

How the data were processed

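Total RNA was hybridised to 18 one-colour Affymetrix arrays in 6 groups of 3. The authors deposited log2 values; the submitters' processing notes name RMA, which summarises the probes of a probe set. RMA gives arrays a common distribution, which hides a shift common to most transcripts, and it compresses low values. The RMA version is not given in the sources used here. Of 54675 probe sets 41097 had 1 gene symbol in the platform annotation, 1801 several and 11777 none, and only the first kind was named; 41043 symbols were updated through RefSeq.

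Each of 19775 genes was read from its probe set with the highest mean, and the 13607 genes whose third-highest value reached 5.88 were tested. A model of all 6 groups was fitted with limma 3.58.1 in R 4.3.3 (12 residual degrees of freedom, median residual SD 0.073), with two-sided moderated tests and Benjamini-Hochberg adjustment over all genes of a comparison at a threshold of 0.05. Errors are standard errors of the fit, and the number of arrays limits the precision. A probe set is called bright where its mean in either group reached 5.88. The fit was tested on simulated data.

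The comparison, the 51 gene lists (1120 genes) and the tests were chosen with earlier results of these data known, so list counts are descriptions and no list was tested. Genes were named by a rule: TRIM24, from called genes with no overlap between groups the 15 that rose and the 15 that fell most, 3 called members per list and direction with the smallest adjusted p, and 8 genes per direction for each difference between settings. The text names a selection, and members outside the rule were chosen after their values were seen. Some genes are not reported here. Alternatives were other low-value filters, probe set choices, scalings, samples in the fit, variance models, array weights, thresholds, a GAPDH 3' to 5' covariate, the replicate number as a block, and leaving out each array.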

Additional observations from a re-analysis of the deposited data

Results flagged for a closer look

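The response to TRIM24 knockdown differed between settings for the genes below by a test of the difference itself (limma, adjusted over 13607 genes). All of these share the vehicle arrays of LNCaP. The log2 change was higher with vehicle than with DHT by 1.07 for SMIM31, 1.02 for FRY, 0.90 for CXCL8, 0.87 for CXCL11, 0.69 for IFIT3, 0.68 for HERC5 and 0.66 for OASL, and 13 of 27 interferon effectors differed in this direction. It was lower with vehicle, with a difference of -1.63 for CP, -1.23 for TMPRSS11E, -1.04 for MAF, -0.97 for UGT2B17, -0.90 for AMOTL1, -0.78 for CCN1, -0.58 for NPC1 and -0.49 for IFNAR1. Against LNCaP-abl it was higher in LNCaP by 1.39 for GINS1, 1.36 for FEN1, 1.31 for CDK6, 1.20 for KIF20A, 1.02 for CCNB2 and 0.95 for HERC5, and lower with a difference of -1.52 for NAALADL2 and -0.94 for CXCR4. CP with DHT, and CDK6, NAALADL2 and CXCR4 in LNCaP-abl, averaged below the filter value of 5.88 in both groups. For CP, NAALADL2 and CXCR4 a fall of the size seen in LNCaP with vehicle could not be measured there. CDK6 rose in LNCaP, and no rise was seen in LNCaP-abl, where it read 5.59 in both groups. KIF20A stood at 5.89 in LNCaP controls. GINS1, FEN1 and CCNB2 read 7.49, 8.68 and 8.02 in LNCaP controls, below 9.33, 9.89 and 9.53 in LNCaP-abl controls. Controls of CXCL11 and CXCL8 read 8.91 and 7.54 with DHT, above 8.08 and 6.75 with vehicle. Groups of 3 arrays are too small for a test of single outlying arrays.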

How the results depend on the processing

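No named gene or difference between settings reversed in the alternatives counted. The threshold alternatives reused the main fit, so no sign could change there. Testing every probe set alone was not part of this count, and LAMC1 was called the other way on its second bright probe set, at -0.20. Over 19 alternatives the named genes gave 2369 values, of which 45 lost and 3 gained the call. The 1.5-fold threshold left 616 genes called for knockdown with vehicle, 90 for the difference from DHT, 400 for the difference from LNCaP-abl, 8 interferon effectors higher (5 more so than with DHT), 6 chemokines and NF-kappaB targets higher, 5 mitotic kinases and cyclins, 5 kinetochore, 4 anaphase and cytokinesis, 4 androgen-induced genes and 1 p53 target lower, and 3 ER to Golgi genes higher. An adjusted p under 0.01 left 652 and 2216 differences from DHT and LNCaP-abl, and no filter 993 from DHT. Testing every probe set alone gave 8884 calls and 5933 differences from LNCaP-abl. The GAPDH covariate gave 3437 calls, with 14 interferon effectors, 11 chemokines and NF-kappaB targets and 14 ER to Golgi genes higher. Called lower with it were 8 mitotic kinases and cyclins, 12 kinetochore, 8 anaphase and 11 androgen-induced genes and 10 p53 targets. The cause was not tested. Leaving out 1 array gave 4573 to 4829 calls, 1036 to 1599 and 3170 to 3899 differences, 16 to 17 interferon effectors (10 to 14 more so than with DHT), 11 to 12 chemokines, 12 to 13 mitotic kinases, 12 to 16 kinetochore, 14 to 15 anaphase, 14 to 15 androgen-induced, 14 to 17 ER to Golgi genes and 12 to 14 p53 targets. With the replicate number as a block 5115 genes were called. Same-numbered arrays deviated together at r = 0.11, -0.10 and 0.20, and other pairs at -0.24 to 0.22. So few values could not show whether the numbers pair the samples. Median centring gave 2746 rises and 2246 falls, quantile normalization 2729 and 2550. Scaling moved the balance of the differences more. Against LNCaP-abl, 3404 were more positive and 757 more negative in LNCaP with median centring, and 1827 and 1644 with quantile normalization. Against DHT, 725 were more positive and 475 more negative with vehicle, and 679 and 910. Changes of genes near or below 5.88 are compressed.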

Other observations

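Hypoxia targets rose more often than they fell, 11 against 2 of 19, with a median of 0.15. BNIP3L, a mitophagy receptor, read 11.62, 11.64 and 11.46 in controls and 12.22, 12.27 and 12.22 after TRIM24 knockdown (0.67 ± 0.04 SE, adjusted p = 6.4e-09), and HIF1A, the oxygen-regulated factor itself, rose by 0.26 ± 0.04. The glucose transporter SLC2A1 went against the list, from 8.57, 8.53 and 8.69 to 8.11, 7.85 and 8.08 (-0.59 ± 0.06, adjusted p = 2.0e-06), and glycolysis genes gave 2 rises and 7 falls among 20. Oxidative phosphorylation gave 2 rises and 7 falls among 28, and of 22 cytosolic ribosomal protein genes 1 rose and none fell.

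Genes of receptor kinases and PI3K signalling fell in 9 of 24 cases and rose in 3. PIK3CB, a catalytic subunit of PI3K, read 10.40, 10.43 and 10.45 in controls and 9.94, 9.89 and 9.83 after knockdown (-0.54 ± 0.04, adjusted p = 1.4e-08; -0.11 and not called on its second bright probe set), and INPP4B, a phosphatase that opposes the pathway, changed by -0.89 ± 0.08 at a dim level; on its most variable probe set the change was -0.43 and was not called (adjusted p = 0.057). MXD1, a MAX partner that opposes MYC, rose by 0.74 ± 0.05, in a list of MYC and ribosome biogenesis genes with 8 rises and 2 falls among 23. Among apoptosis regulators, with 8 rises and 2 falls of 23, the BH3-only gene HRK rose by 0.58 ± 0.07. TGF-beta pathway genes gave 5 rises and 6 falls among 22, the receptor TGFBR1 at 0.56 ± 0.06 and the pseudoreceptor BAMBI at -0.52 ± 0.04. NRF2 targets gave 8 rises and 4 falls among 17, heat shock chaperones 6 and 1 among 17, ATF4 response genes 7 and 3 among 23, Wnt pathway genes 7 and 7 among 22, laminins and integrins 4 and 3 among 22, EMT factors 5 and 2 among 18 and DNA methylation and Polycomb genes 5 and 3 among 22. None of 5 neuroendocrine and 5 leukocyte and endothelial markers passed the test, and 1 of 8 fibroblast markers fell.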
